A study of Solanum lycopersicum with 24 samples.

Results

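The genes described here code for the subunits of the photosynthetic complexes that tomato keeps in its plastid genome. Photosystem II takes electrons from water, photosystem I hands them to ferredoxin, the chloroplast NADH dehydrogenase-like complex (NDH) returns electrons from ferredoxin to the plastoquinone pool around photosystem I, and the ATP synthase uses the resulting proton gradient. Plastid genes are transcribed by a bacterial-type RNA polymerase whose subunits the plastid itself encodes and by a nuclear-encoded phage-type polymerase, mostly as transcription units that carry several genes. Roots hold non-green plastids, in which photosynthesis genes are transcribed at lower levels than in chloroplasts. Members were taken by name: a probe set belonged when its only gene symbol was psa, psb, pet, atp or ndh followed by 1 capital letter, or *rbcL*. This gave 28 genes and 47 of 67795 probe sets, with 4 genes of photosystem I, 7 of photosystem II, 6 of the ATP synthase and 11 of NDH. No probe set carried a pet symbol or *rbcL*. The RefSeq plastid genome lists 44 genes with names of this pattern. Of these, 17 were not among the labels, including *psbB*, *psbC* and *psbD* of photosystem II.

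Plants of the *res* mutant (Restored cell structure by salinity, a chlorotic line in the cultivar Moneymaker) and of Moneymaker itself (WT) were grown in hydroponics. Roots and leaflets of the first fully expanded leaf were taken from 6-week-old plants before stress (control) and after 5 days in 200 mM NaCl (salt). Each of the 8 groups had 3 arrays, and each array carried RNA pooled from 3 plants. Control tissue was the younger by those 5 days, so the effect of salt cannot be told apart from that of age. Values are the deposited log2 intensities, given replicate by replicate in the order 1 to 3 or as mean ± SD (n = 3), and differences are log2 values ± SE from limma. A gene was called when its adjusted p was under 0.05 over all 65927 rows tested and its difference was at least 2-fold. The number of genes past the adjusted p alone, at any fold, is given beside it.

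In organ checks, all 7 nuclear photosynthesis genes measured stood higher on every leaf array than on any root array, *CAB4* (a chlorophyll a/b-binding protein) at 10.74 to 11.64 in leaves and 2.60 to 6.80 in roots. Of 4 root markers present, *fer* (a regulator of iron uptake) ran from 5.31 to 9.25 in roots and from 1.17 to 1.79 in leaves, while *FRO1* overlapped between organs, *PT2* was low in both and *AMT1-3* was higher in leaves. Replicate 1 of WT control leaves and replicate 3 of WT salt roots stood apart from their groups, with 2494 and 1399 probe sets more than 2-fold away from their 2 companion arrays. No member probe set was that far from its companions on any array. An array measures the plastid RNA of a whole organ, so that fewer plastids or cells and less RNA in each cannot be told apart.

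The names needed care in a pair of respects. *psaD* is a nuclear gene, which RefSeq (assembly SLM_r2.1) places on chromosome 6, and is reported apart. The other 27 genes are plastid genes in RefSeq, 22 of them with 1 probe set each. *atpB* (7 probe sets), *psbE* (6), *psbM* (4), *psbN* (4) and *ndhF* (3) held the remaining 24. In each of these 5 runs the number of probe sets equalled the number of plastid genes that RefSeq lists from the named gene up to the next named one. After *atpB*, for example, come *rbcL*, *accD*, *psaI*, *ycf4*, *cemA* and *petA*, after *psbM* come *psbD*, *psbC* and *psbZ*, after *psbN* come *psbH*, *petB* and *petD*, after *psbE* come *petL*, *petG*, *psaJ*, *rpl33* and *rps18*, and after *ndhF* come *rpl32* and *ccsA*. The averages of these 5 labels may therefore mix neighbouring genes. They are given as averages and then probe set by probe set, and no probe set is assigned to another gene. Among runs of other plastid labels, *ycf2*, *rps16*, *rpoB* and *clpP* matched the gene order in the same way, while *rpl23*, *rps7* and *ycf1* did not. A probe set labelled *ycf1* also had the same values on all arrays as the probe set labelled *ndhB*.

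Plastid photosynthesis transcripts were among the strongest signals on the leaf arrays and remained strong in roots. Ranks are of signal, which also depends on the probes. On leaf arrays every plastid member ranked within the top 249 of 65927 rows, with a median rank of 55 to 68, and on root arrays every one ranked within the top 3860, with a median rank of 227 to 588. The means of the 28 members spanned 10.36 to 12.34 in WT control leaves and 5.48 to 11.82 in WT control roots. The arrays of a group lay close together. The median SD of a member was between 0.02 and 0.04 in the leaf groups and between 0.05 and 0.12 in the root groups.

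**Figure D1:**
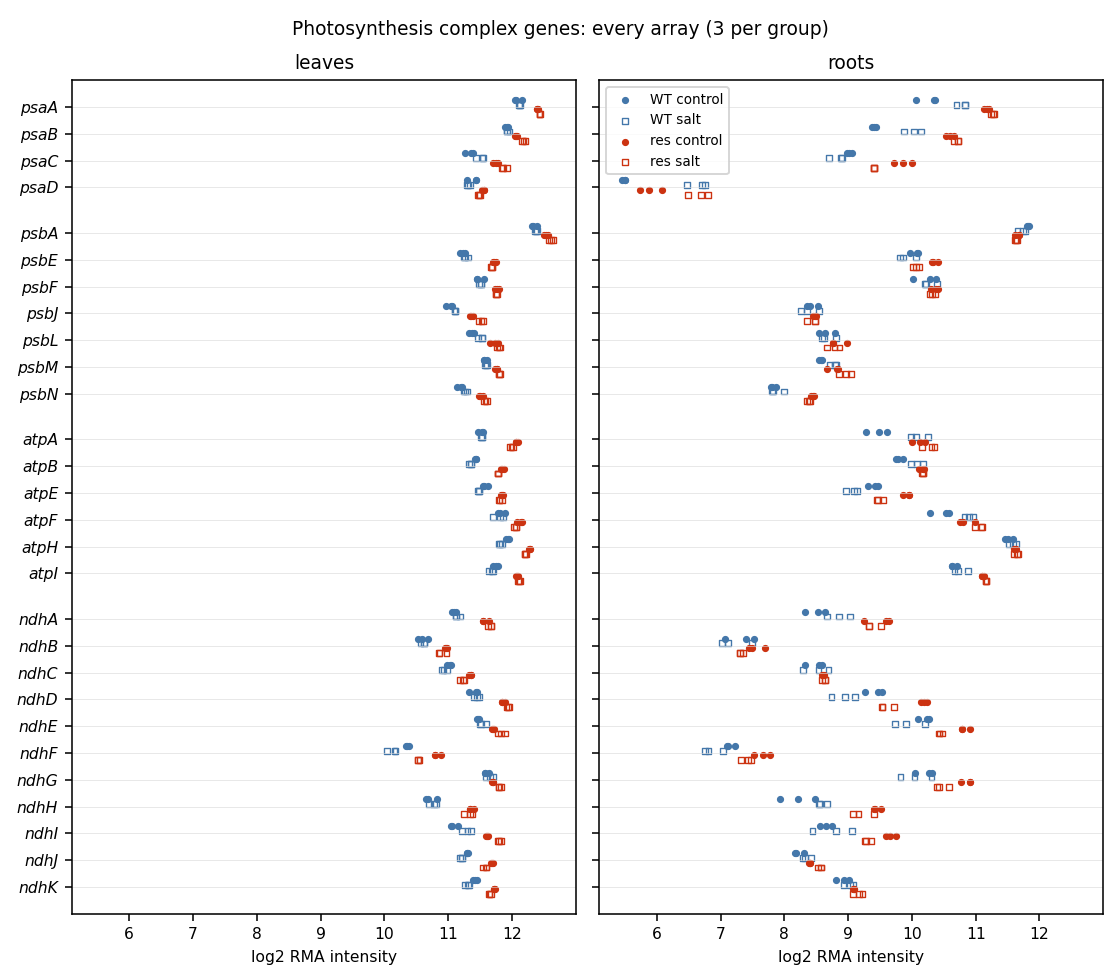
Log2 RMA intensity of the 28 genes on each of 24 arrays, leaves left and roots right, with WT in blue, *res* in red, control as filled circles and salt as open squares (3 arrays per group). Leaf values lie between 10.04 and 12.64, while root values run from 5.46 to 11.83.

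Every member stood higher in leaves than in roots, with no overlap of arrays, in WT and *res* and in control and salt. All leaf arrays were above all root arrays for 20.7% of all rows in WT control, 17.1% in WT salt, 18.9% in *res* control and 17.4% in *res* salt. In WT control 26 of 28 were called higher in leaves, against 5.61% of all rows. In WT salt 24 were called (5.44% of all rows), in *res* control 23 (5.59%) and in *res* salt 24 (4.71%). The organ gap was far from uniform. *psbA*, which codes for the D1 protein of photosystem II, the subunit with the fastest turnover, gave nearly as strong a signal in roots as in leaves. Its values were 12.33, 12.39 and 12.31 in WT control leaves and 11.81, 11.82 and 11.83 in WT control roots, a difference of 0.52. *atpH*, the membrane ring subunit of the ATP synthase, differed by 0.42. They had the highest root signals of all members. *psbA* ranked within the top 5 of all rows in WT control leaves and the top 20 in WT control roots, *atpH* within the top 18 and 38. What such a place near the top of the intensity range does to the size of the gap was not tested. These 2 genes were below 2-fold in all 4 organ comparisons. The other members that missed it in at least 1 comparison were *atpI*, *atpF*, *ndhE* and *ndhG*.

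At the other end, *psbN* (needed for the assembly of photosystem II in tobacco) and *ndhB* and *ndhF* (membrane subunits of NDH) were lower in WT control roots by 3.36, 3.27 and 3.21. The values of *psbN* and *ndhF* are averages, and their order rests on the averaging. Single probe sets differed by 2.59 to 3.67 for *psbN* and by 1.24 to 4.31 for *ndhF*. Among plastid genes with 1 probe set, *ndhB* had 10.68, 10.59 and 10.52 in WT control leaves and 7.40, 7.07 and 7.52 in roots, followed by *ndhJ* with a difference of 3.08. The nuclear *psaD*, the stromal subunit of photosystem I that docks ferredoxin, exceeded all plastid members with 5.90. Its values were 11.30, 11.43 and 11.44 in WT control leaves and 5.50, 5.50 and 5.46 in roots.

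In control roots, *res* carried more plastid photosynthesis RNA than WT for a subset of the genes. Of the 28 members 4 were called higher and none lower, where 2.89% of all rows were called higher and 2.46% lower. The 4 were *ndhH*, *psaB*, *ndhI* and *ndhA*. At any fold, 18 were higher past the adjusted p and none lower (7.47% and 6.35% of all rows). The difference of the median member was 0.43, against -0.01 for all rows. Scaling the arrays within roots left the same 4 genes called (2.77% of all rows) and 16 past the adjusted p (7.11%).

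*psaB*, one of the paired reaction centre proteins of photosystem I, had 9.41, 9.37 and 9.43 in WT and 10.59, 10.66 and 10.54 in *res*. The groups were more than 1 log2 unit apart on every array, and the difference was 1.19 ± 0.09 (limma, adjusted p = 4.5e-07). Its partner *psaA* had 10.36, 10.34 and 10.07 in WT and 11.20, 11.18 and 11.13 in *res*, a difference of 0.91 ± 0.09 (adjusted p = 1.1e-05). *psaC*, the iron-sulphur subunit that passes electrons to ferredoxin, differed by 0.85. The nuclear *psaD* had 5.50, 5.50 and 5.46 in WT and 6.09, 5.87 and 5.74 in *res*, a difference of 0.42 ± 0.12 (adjusted p = 0.028). *psaD* missed the threshold in 5 of 12 fits that each left out 1 array (limma, adjusted p up to 0.134). Scaled within roots, *psaD* had 0.39 and just missed the threshold (adjusted p = 0.051), while the 3 plastid genes of photosystem I stayed past it.

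*ndhH*, a subunit of the stroma-exposed arm of NDH, had 8.21, 7.93 and 8.48 in WT and 9.52, 9.41 and 9.42 in *res*. The difference was 1.24 ± 0.13 (limma, adjusted p = 1.4e-05), with *res* above WT on every array. *ndhI*, another subunit of this arm, had 8.75, 8.56 and 8.65 in WT and 9.60, 9.75 and 9.65 in *res*. *ndhA*, a membrane subunit, had 8.63, 8.32 and 8.53 in WT and 9.26, 9.64 and 9.59 in *res*. Both lay just above 2-fold, with differences of 1.01 ± 0.13 and 1.00 ± 0.13. Leaving out replicate 2 of *res* or of WT control roots took both below it and left 2 genes called. Of the 12 fits that each left out 1 array, *ndhA* was below it in 3 and *ndhI* in 2.

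In photosystem II 2 of the 7 labelled genes were past the adjusted p, *psbN* with 0.62 and *psbE* with 0.30, both averages of several probe sets. *psbA* was the only member lower in *res* roots, with 11.81, 11.82 and 11.83 in WT and 11.68, 11.62 and 11.68 in *res*. The arrays did not overlap, but the difference of -0.16 ± 0.08 missed the threshold (limma, adjusted p = 0.24). *psbF* (the beta subunit of cytochrome b559) and the small subunits *psbL* and *psbJ* differed by 0.14, 0.17 and 0.05. None of the 3 was past the adjusted p. In the ATP synthase 5 of 6 genes were past it, led by *atpA* (the alpha subunit of the catalytic head) at 0.66 ± 0.11 and *atpE* (the epsilon subunit) at 0.52 ± 0.09. *atpH* differed by 0.10.

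**Figure D2:**
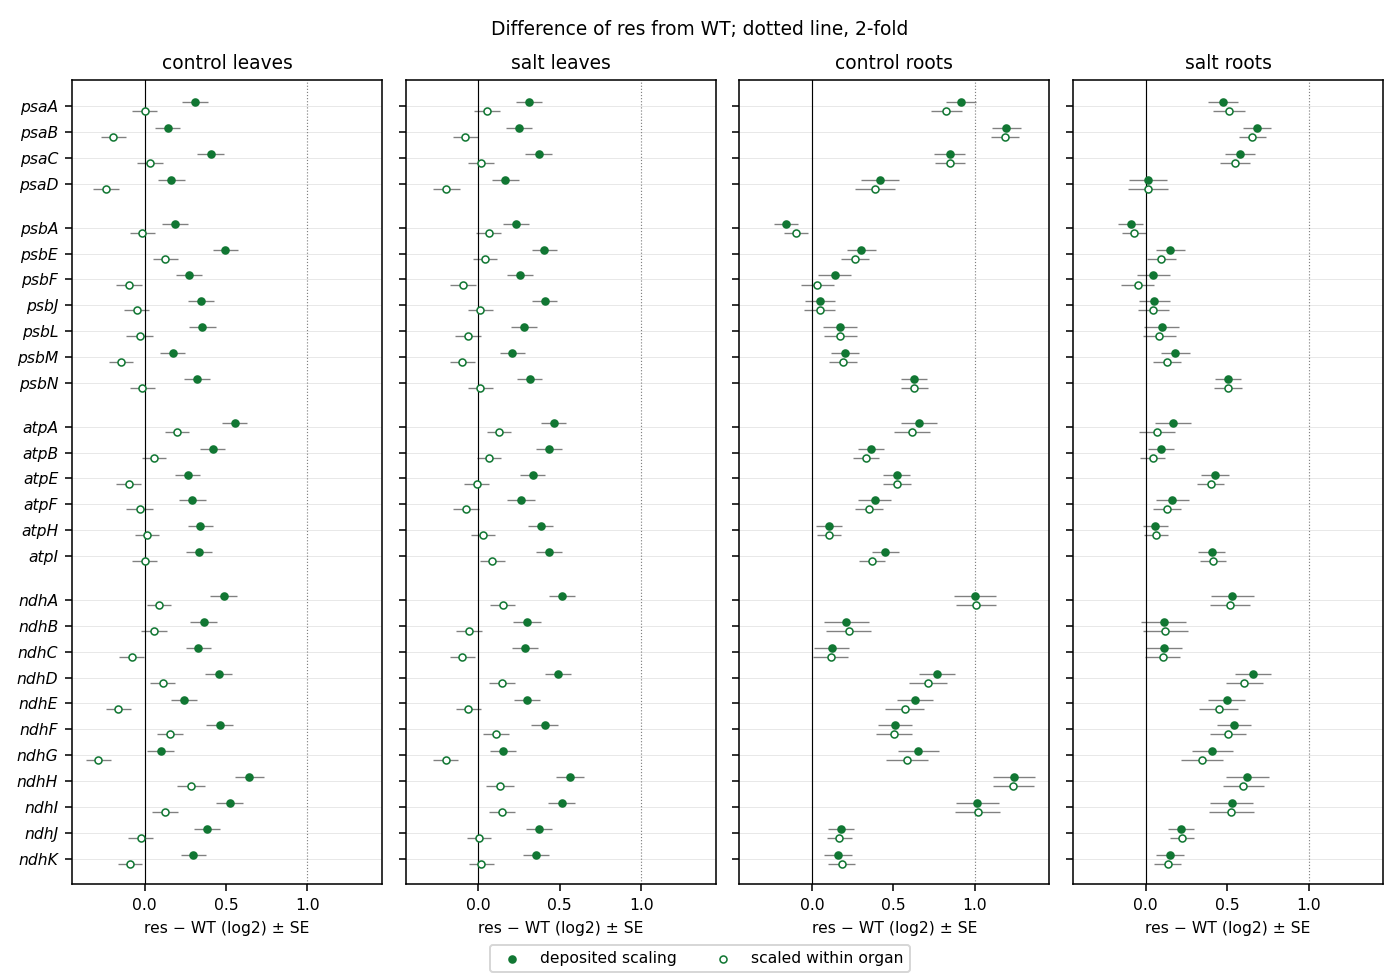
Log2 difference of *res* from WT ± SE (limma) for each gene in 4 comparisons, with filled points for the deposited scaling and open points for arrays scaled within an organ. In leaves the open points scatter around 0 while the filled ones are all above it. In control roots both kinds lie between -0.16 and 1.24.

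The differences in control roots can be laid out by transcription units known from other land plant plastids. Transcription of genes as a unit was not measured here. All 7 measured genes of the unit *ndhH*-*ndhA*-*ndhI*-*ndhG*-*ndhE*-*psaC*-*ndhD* were past the adjusted p in control roots, with differences of 0.63 to 1.24, and so were both genes of *psaA*-*psaB*. Of the unit *ndhC*-*ndhK*-*ndhJ*, which codes for other subunits of the same complex, none of 3 was, with differences of 0.12 to 0.18. Of the NDH genes outside these units, *ndhF* was past it (0.51), with 7.10, 7.11 and 7.23 in WT and 7.53, 7.78 and 7.67 in *res*, and *ndhB* was not (0.21). *ndhC* had 8.54, 8.32 and 8.59 in WT and 8.61, 8.62 and 8.59 in *res*, and the arrays of the genotypes overlapped. In *atpI*-*atpH*-*atpF*-*atpA* 3 of 4 were past the adjusted p (0.10 to 0.66), and in *psbE*-*psbF*-*psbL*-*psbJ* 1 of 4, *psbE* (0.05 to 0.30). The *psbE* value is the average of 6 probe sets and missed the threshold in 8 of 12 fits that each left out 1 array (adjusted p up to 0.142), and the first of its probe sets had 0.11 (adjusted p = 0.653). Both genes of *atpB*-*atpE* were past the adjusted p, *atpB* as an average of probe sets that moved in opposite directions. This description is of counts, and the difference between units was not tested.

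In salt the difference between the genotypes was smaller in roots. No member was called (1.16% of all rows were called higher and 0.981% lower), 12 were higher past the adjusted p and none lower (4.65% and 3.2% of all rows). All 12 were plastid genes. *psaB* had 10.14, 10.03 and 9.88 in WT and 10.73, 10.72 and 10.66 in *res*, a difference of 0.68 ± 0.09 (limma, adjusted p = 0.00027). *ndhD*, a membrane subunit, differed by 0.66, *ndhH* by 0.62 and *psaC* by 0.58. *psaD* was at the same level in both genotypes, with a difference of 0.01 ± 0.12 (adjusted p = 0.97). Of the unit from *ndhH* to *ndhD*, 6 of 7 genes stayed past the adjusted p, and of *ndhC*-*ndhK*-*ndhJ* again none. Leaving out each array in turn gave 9 to 13 members higher past it. In these 12 fits *ndhA* and *ndhI* each missed the threshold in 4 (limma, adjusted p up to 0.105 and 0.0998), *ndhE* in 2 and *ndhH* in 1. *psaC* and *ndhD* always stayed past it.

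The test of the change between conditions (the interaction of genotype and salt) passed for *psaB* alone, at -0.51 ± 0.12 (limma, adjusted p = 0.025). No member was called in it (1.8% of all rows higher, 1.86% lower), and 3.33% and 3.01% of all rows were past the adjusted p above and below 0. Among the others, *ndhH* had -0.62 ± 0.18 (adjusted p = 0.076), *atpA* -0.49 ± 0.16 (adjusted p = 0.1) and *psaA* -0.44 ± 0.13 (adjusted p = 0.08). Of 28 values 24 were below 0, where the median of all rows was 0.01. The value of *psaB* ran from -0.58 to -0.45 on leaving out each of the 12 arrays in turn, but it missed the threshold in 9 of these fits (adjusted p up to 0.067). It stayed past it without replicate 3 of *res* control, of WT control or of WT salt. Without the last, the array that stands apart, 3 members passed.

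Between control and salt these genes differed in roots by less than 2-fold, with *psaD* the exception. In WT roots 1 of 28 members was called higher and none lower (1.48% and 1.2% of all rows), and the one was *psaD*. It rose from 5.50, 5.50 and 5.46 to 6.76, 6.71 and 6.48, a difference of 1.16 ± 0.12 (limma, adjusted p = 2.2e-05). At any fold 6 members were higher and 2 lower (4.51% and 4.56% of all rows). Of the plastid genes *atpA* (0.65), *psaB* (0.61), *psaA* (0.53) and *atpF* (0.43) rose. The last of the 6, *atpB*, had an average of 0.28 over 7 probe sets that ran from -0.20 to 0.70, and it missed the threshold in 11 of 12 fits that each left out 1 array (adjusted p up to 0.142). *ndhD* fell by 0.49 and *atpE* fell by 0.34. In the same 12 fits *atpF* missed the threshold in 2, *ndhD* in 1 and *atpE* in 4. In *res* roots no member was called (1.58% of all rows higher, 1.52% lower). Past the adjusted p, *psaD* was higher by 0.76 and 4 plastid genes were lower (6.47% and 4.96% of all rows). *ndhD* fell by 0.59, *psaC* fell by 0.46, *atpE* fell by 0.43 and *ndhE* fell by 0.38. On leaving out each array in turn, *ndhE* missed the threshold in 10 of 12 fits (limma, adjusted p up to 0.132). In these fits *ndhD*, *psaC* and *atpE* always stayed past it. *psaA* and *psaB*, which rose in WT, had 0.09 and 0.10 in *res*. *psaA* went from 10.36, 10.34 and 10.07 to 10.84, 10.83 and 10.70 in WT, with all salt arrays above the control arrays, and from 11.20, 11.18 and 11.13 to 11.27, 11.28 and 11.24 in *res*. *psbA* had 11.74, 11.65 and 11.78 in WT salt roots and 11.63, 11.64 and 11.62 in those of *res*, differences from control of -0.10 and -0.03. Without replicate 3 of WT salt roots, *psaD* rose by 1.25 in WT, 1 member was lower in WT and 7 were lower in *res*.

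Within the long unit the salt values of WT ran from positive to negative along the gene order. They were 0.38 for *ndhH*, 0.36 for *ndhA*, 0.12 for *ndhI*, -0.15 for *ndhG*, -0.25 for *ndhE*, -0.19 for *psaC* and -0.49 for *ndhD*, each with an SE of 0.09 to 0.13. Only the last was past the adjusted p. In *res* roots the values were -0.23, -0.11, -0.37, -0.40, -0.38, -0.46 and -0.59 in the same order. *ndhD* had 9.47, 9.53 and 9.27 in WT control roots and 9.11, 8.95 and 8.74 in salt, and 10.23, 10.15 and 10.19 against 9.53, 9.54 and 9.72 in *res*. In both genotypes the salt arrays were all below the control arrays. *ndhC*, *ndhK* and *ndhJ* had salt values of 0.02 to 0.13 in WT and 0.02 to 0.16 in *res*.

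**Figure D3:**
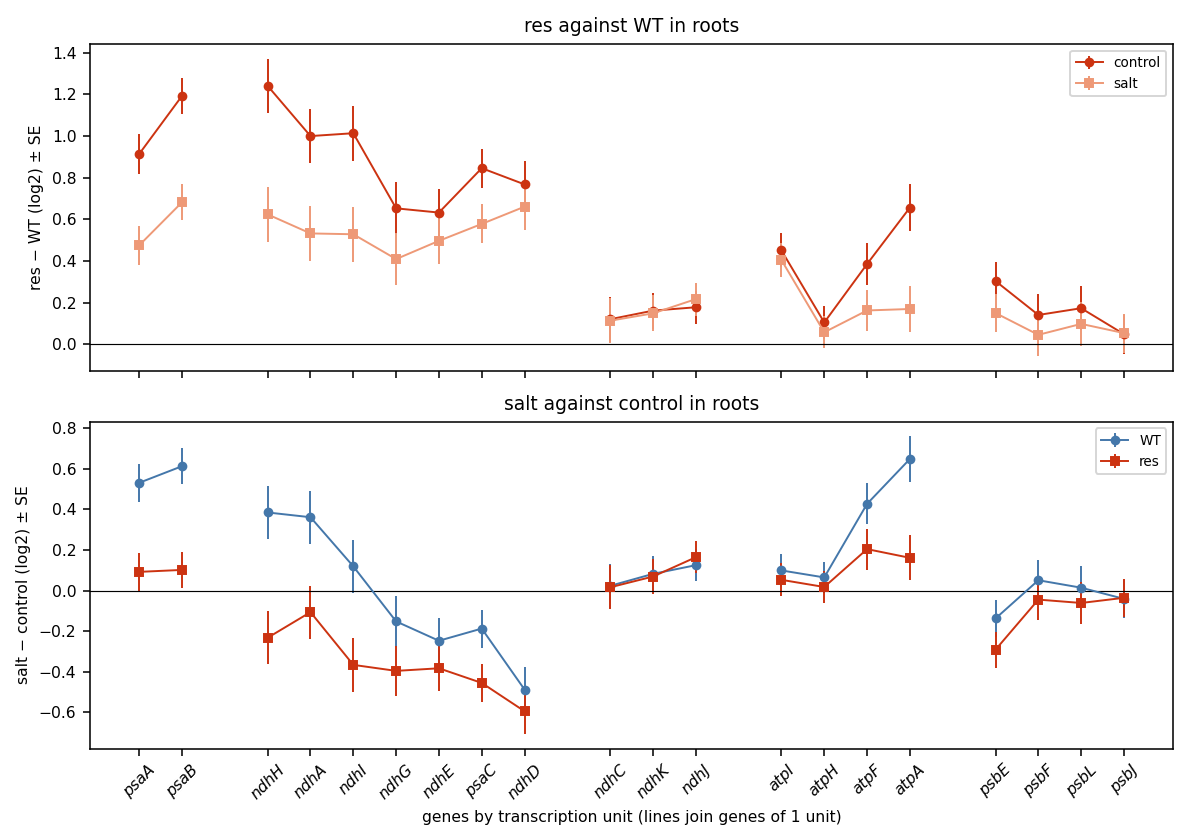
Log2 differences ± SE in roots (limma, deposited scaling) with genes placed by transcription unit, *res* against WT above and salt against control below. The unit from *ndhH* to *ndhD* and *psaA*-*psaB* stand well above 0 in the upper panel, and *ndhC*-*ndhK*-*ndhJ* stays between 0.11 and 0.22.

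In leaves no member was called between *res* and WT in control (1.27% of all rows were called higher, 2.59% lower) or in salt (1.13% and 3.19%). At the deposited scaling all *res* arrays were above all WT arrays for each of the 28, by 0.10 to 0.64 in control and 0.15 to 0.56 in salt, as they were for 8.53% of all rows in control and 9.86% in salt. Past the adjusted p at any fold were 22 in control and 24 in salt, and none was lower (20 in control without replicate 1 of WT; 5.25% of all rows were above 0 and 15.2% below in control, 4.27% and 14.7% in salt). This direction depended on the scaling. When quantile normalization was repeated within leaves, 12 of 28 were above 0 in control and 17 in salt, 1 was past the adjusted p above 0 and 1 below in control (8.14% and 7.65% of all rows), and none in salt (7.65% and 8.06%). All *res* arrays were then above all WT arrays for 8 members in control and 10 in salt (15.6% and 18.6% of all rows), and below them for 9 and 7. The share of all rows below is not given, so nothing is read into the 9 and 7. The highest value on an array was 12.40 to 12.48 in WT leaves and 12.61 to 12.64 in *res* leaves at the deposited scaling, so that the top of the scale itself differed between the genotypes.

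*ndhH* had the largest leaf difference. Its values were 10.82, 10.68 and 10.65 in WT control leaves and 11.34, 11.35 and 11.40 in *res*, a difference of 0.64 ± 0.09 (limma, adjusted p = 0.00034). Scaled within leaves it was 0.29 ± 0.09 (adjusted p = 0.042), the only member that stayed above 0 past the threshold. *ndhG*, another membrane subunit, went from 0.10 ± 0.08 to -0.28 ± 0.08 (adjusted p = 0.026). *psaA* was 12.06, 12.05 and 12.15 in WT and 12.40, 12.39 and 12.39 in *res*, and its difference went from 0.31 to 0.00. *psbA* had 12.33, 12.39 and 12.31 in WT and 12.50, 12.56 and 12.53 in *res*, a difference of 0.19 that turned to -0.01. *psaB* went from 0.14 to -0.19.

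The leaf levels in salt were within 0.29 of control in both genotypes. No member was called in WT (4.35% of all rows higher, 2.41% lower) or in *res* (1.77% and 1.54%), and in WT none was past the adjusted p (11.5% of all rows above 0, 8.91% below). In *res* 1 was (5.83% and 4.44%). This gene, *ndhF*, was 1.22-fold lower, with 10.88, 10.79 and 10.79 in control and 10.52, 10.52 and 10.55 in salt (limma, adjusted p = 0.044). Scaled within leaves it missed the threshold. The interaction of genotype and salt was past the adjusted p for no member in leaves (2.56% of all rows above 0, 4.02% below), and none was called (1.65% higher, 2.39% lower).

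Whether the *res* difference differed between organs was tested in 1 fit of the 24 arrays, which took root and leaf arrays as independent. In control *psaB* was called, its difference being larger in roots by 1.05 (limma, adjusted p = 1.56e-07), and by 1.38 scaled within organs (adjusted p = 1.91e-09). The called share of all rows was 4.86% and 3.86%. *psaA* had 0.61 and 0.82, and *ndhH* 0.60 and 0.95, past the adjusted p under either scaling. *psbA* went the other way, at -0.35 (adjusted p = 0.0137) at the deposited scaling, but scaled within organs it had -0.08 and missed the threshold (adjusted p = 0.64). In salt the value of *psaB* was 0.43 (adjusted p = 0.00622) and no member was called (5.25% of all rows, 3.04% scaled within organs).

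Probe sets that share a label did not always move together. The first of the 7 labelled *atpB*, the beta subunit of the ATP synthase head, was 0.58 higher in *res* control roots, the second 0.47 lower (a log2 difference of -0.47), the next ones had -0.16 and 0.06, and the last 3 were 0.82 to 0.85 higher. Adjusted p values for single probe sets come from a fit of all 67795. In it 4 of the 7 were past the threshold above 0 and 1 below. The average of *atpB*, with 9.78, 9.75 and 9.86 in WT and 10.17, 10.19 and 10.11 in *res* (0.36 ± 0.08), therefore covers opposite changes. In organs, too, the *atpB* probe sets ranged from -0.17 to 2.70 (leaves minus roots, WT control). The 4 *psbN* probe sets were all higher in *res* past the threshold, by 0.38 to 0.82. Of 6 labelled *psbE* (cytochrome b559 alpha subunit) 2 were past the threshold, and the first of the 6 differed by 0.11, within the range of *psbF*, *psbL* and *psbJ*. For *psbM*, a small subunit at the dimer interface of photosystem II in cyanobacteria, the probe sets differed by 0.07 to 0.36. For *ndhF* the values were 0.58, 0.50 and 0.45, and the second stood at 9.37 in WT control roots, against 6.11 and 5.98 for the others.

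**Figure D4:**
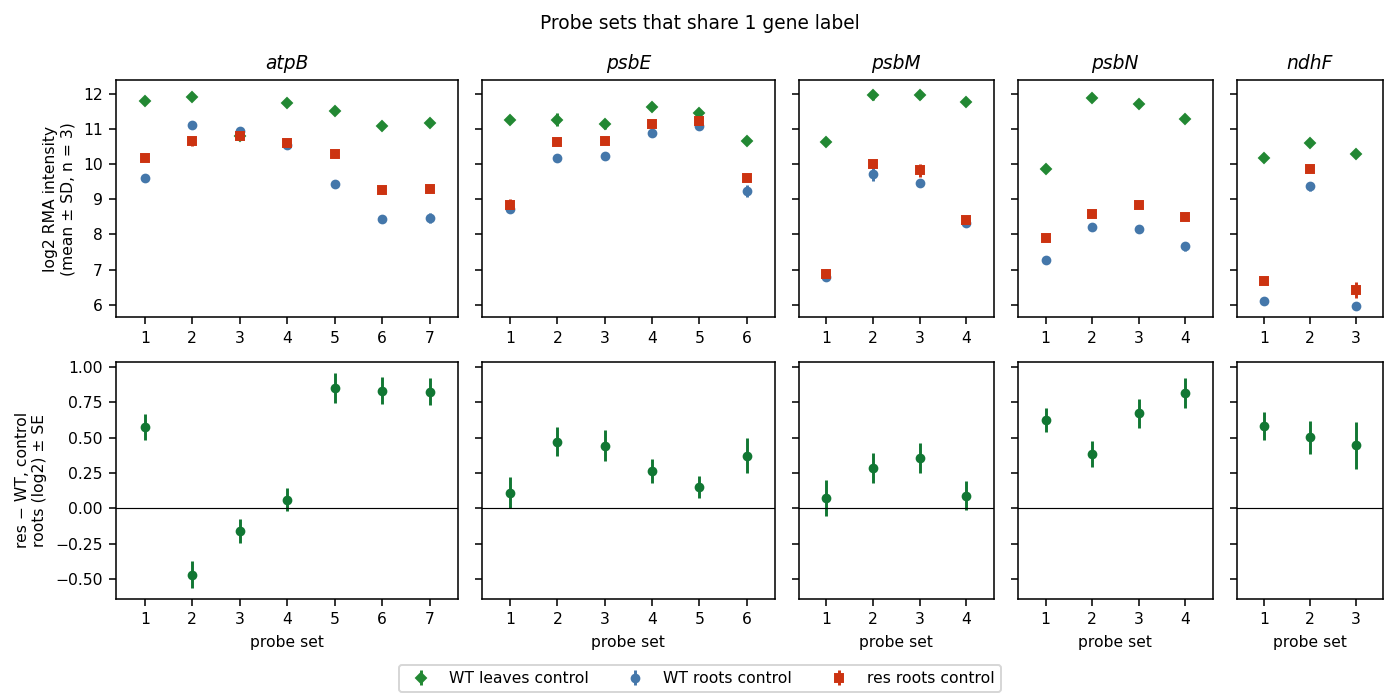
Upper row, mean log2 intensity ± SD (n = 3 arrays) of every probe set of the 5 labels with several, in WT control leaves, WT control roots and *res* control roots. Lower row, the difference of *res* from WT in control roots ± SE, which runs from -0.47 to 0.85 for *atpB*.

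Other plastid genes moved beside the photosynthesis genes. A comparison list held 18 plastid genes with 1 probe set each (ribosomal proteins, RNA polymerase subunits, *matK* and *ycf3*). The names *rpl16*, *rps3*, *rps19*, *rpl2*, *rps14*, *rps4* and *rps12* also occur in the mitochondrial genome in RefSeq. They were taken as plastid by their place among the plastid probe sets. The probe set labelled *rpl2* had the same values as one labelled *ycf2*. In control roots 16 of 18 were higher in *res* past the adjusted p, with a median difference of 0.55, against 17 of the 27 plastid photosynthesis genes and 0.45. In salt roots 10 of 18 were, with a median of 0.44. Averaged per array, the 22 photosynthesis genes with 1 probe set exceeded the 18 others by 0.50 ± 0.09 (SD, n = 3 arrays) in WT control leaves and by 0.26 ± 0.03 in *res* control leaves. In roots they were below them, by -0.48 ± 0.02 in WT control, -0.56 ± 0.01 in *res* control, -0.59 ± 0.05 in WT salt and -0.73 ± 0.01 in *res* salt. The gap in leaves was 0.55 ± 0.0039 in WT salt and 0.38 ± 0.0035 in *res* salt. The size of a gap depends on the probes, and its change between groups was not tested. Scaled within organs the gap was 0.51 in WT control leaves and 0.27 in *res* control leaves.

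**Figure D5:**
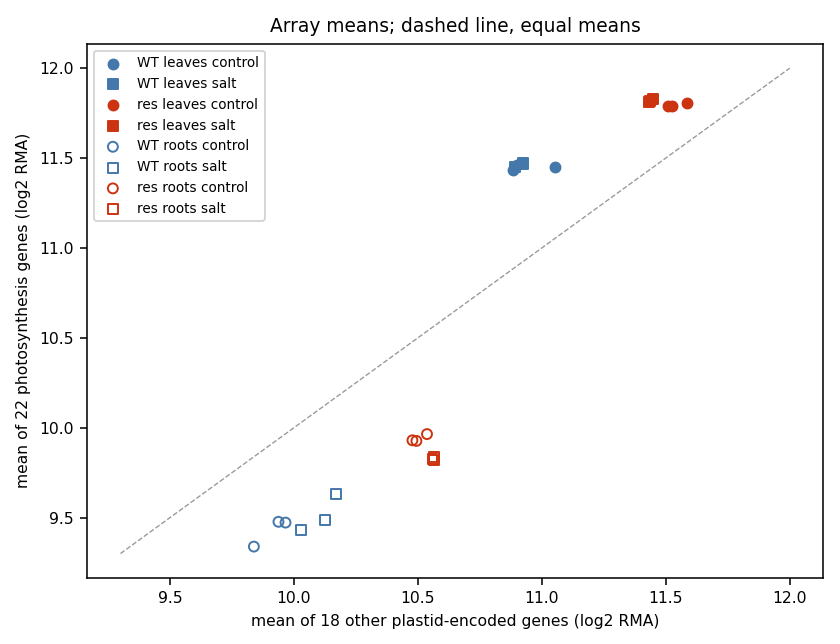
Mean log2 intensity per array of the 22 plastid photosynthesis genes with 1 probe set against that of 18 other plastid genes, leaves filled and roots open. Leaf arrays lie above the dashed line of equal means and root arrays below it.

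Of the 7 nuclear photosynthesis genes 1, *PSBP* (a subunit of the oxygen-evolving complex), was called higher in *res* control roots, by 1.54 (2.89% of all rows were called higher). None was lower past the adjusted p, and in salt roots none was past it in either direction. *PSBP* had 2.29, 2.14 and 2.23 in WT control roots and 3.41, 4.31 and 3.56 in those of *res*. The WT values were near the median of all probe sets on these arrays, 2.02 to 2.05. The summed linear intensity of the 7 genes was 132.2 to 157.6 on WT control root arrays and 123.4 to 136.7 on those of *res*, against 6086.4 to 6695.0 in WT control leaves. In WT salt roots it ran from 52.6 to 258.0.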

How the data were processed

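Total RNA of 24 samples was hybridized to Tomato Gene 1.1 ST arrays. The authors processed the scans by RMA (background correction, log2 transformation, quantile normalization over arrays), and the deposited log2 values were used as given. Partek was named for annotation. Software versions: not given in the sources used here. Gene symbols came from the platform table, and plastid gene order from RefSeq (names and neighbours only). Of 67795 probe sets 23194 had 1 symbol.

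Probe sets of 1 symbol were averaged per array, giving 65927 rows. Groups were compared with limma 3.58.1 in R 4.3.3, 12 arrays per organ in 1 fit of 4 groups, or 24 arrays for differences between organs, with Benjamini-Hochberg adjustment over all rows. Every member is accounted for, and values array by array are given for core genes and called genes, with further genes (*psaD*, *ndhB*, *ndhC*, *ndhD*) chosen after their values were seen. Members, lists and tests were chosen with earlier results of these data known. Alternatives were quantile normalization within organs, the brightest or the first probe set per symbol (the latter added after seeing the data, as were counts without a minimum fold and the test between organs), other fits, leaving out the dimmest rows (1 in 3), a replicate block and leaving out each array. Tables and plots were made with Python 3.11.15, pandas 2.3.3 and matplotlib 3.10.9.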

Additional observations from a re-analysis of the deposited data

Results flagged for a closer look

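Results are given here where a test of the difference between groups itself passed the adjusted p. In roots the interaction of genotype and salt was -0.51 for *psaB* (limma, adjusted p = 0.025), with *res* 1.19 above WT in control and 0.68 above it in salt. Between organs, the control difference of *res* from WT was larger in roots than in leaves for 9 genes: *psaB* by 1.05 (adjusted p = 1.56e-07), *psaA* by 0.61, *ndhH* by 0.60, *ndhG* by 0.55, *ndhA* by 0.52, *ndhI* by 0.49, *psaC* by 0.44, *ndhE* by 0.39 and *psbN* by 0.30. These 9 were also past the adjusted p when scaled within organs. The share of all rows past it in this test is not given, so the count of 9 has no background here. *psbA* had -0.35 and was not. In salt *psaB* had 0.43, past the adjusted p under either scaling, while *psbA* (-0.32), *atpH* (-0.33), *atpB* (-0.34) and *psbJ* (-0.35) were past it at the deposited scaling only. *psaB* in control was the only one of these that reached 2-fold. No group had more than 3 arrays, so single outlying arrays were not tested.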

How the results depend on the processing

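Counts of called members stayed within 1.5 times of the reported ones under all alternatives but 1. Leaving out 1 array gave 2 to 4 called higher in *res* control roots. Counts at any fold moved more. Beyond those above, shares of all rows under the alternatives are not given, so these counts show only how far the reported ones moved. Scaled within organs, the 22 and 24 leaf genes higher in *res* became 1 and 0, 1 was lower in control leaves, and the gene lower in *res* salt leaves was lost (0), as it was without the dimmest rows, with the first probe set of each label and with the replicate block (0). Deviations from the group mean correlated little between arrays of 1 replicate number (-0.10 to 0.10 in leaves, -0.08 to 0.06 in roots). The block changed no other count by over 1.5 times. Root arrays were not checked against leaf arrays in this way. Roots and leaves may come from the same plants, which the labels do not say, and the fits of 24 arrays took them as independent. With only the groups compared, 10 were higher in control leaves, 0 lower in WT salt roots and 7 lower in *res* salt roots. With all 24 arrays in 1 fit, 7 were lower in *res* salt roots and 4 below 0 in the root interaction. With variance trend and robust settings, 3 rose and 3 fell in WT salt leaves, 3 rose in *res* salt leaves, 1 was lower in *res* control roots and 4 were below 0 in the root interaction. The brightest probe set gave 1 lower in WT salt leaves, 1 lower in *res* control roots and 3 higher in *res* salt roots, and turned *atpB* in control roots to -0.47. The first probe set gave 4 lower in WT salt roots and 7 in *res* salt roots, and turned *atpB* in WT salt to -0.20. Leaving out 1 array gave 0 to 3 members below 0 in the root interaction, 1 to 4 lower in WT salt roots, 3 to 7 lower in *res* salt roots and 0 to 1 lower in *res* salt leaves. Scaled within leaves, 16 of 28 members were below 0 in control and 11 in salt. Of the 22 past the adjusted p in control, 10 turned: *atpF* -0.031, *atpI* -0.0001, *ndhJ* -0.0244, *ndhK* -0.0903, *ndhC* -0.0802, *atpE* -0.0978, *psbJ* -0.0493, *psbL* -0.0303, *psbF* -0.0955 and *psbN* -0.014. Of the 24 in salt, 8 did: *ndhB* -0.0583, *ndhE* -0.0615, *atpF* -0.0762, *psaB* -0.0789, *ndhC* -0.0987, *atpE* -0.0087, *psbL* -0.0629 and *psbF* -0.0945. Beyond the steps named, the causes were not tested. Leaf members lay near the top of the intensity range, and what this does to their differences was not tested.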
